A study of Homo sapiens with 36 samples.

Results

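Integrins and tetraspanins are 2 families of membrane proteins of the cell surface, and the RNAs of their genes were compared between the pseudopods and the cell bodies of 6 human cancer cell lines. Members were taken by symbol alone: ITGA or ITGB with a number or letter, TSPAN with a number, and CD9, CD37, CD53, CD63, CD81, CD82 and CD151, each from probe sets of the array with 1 gene symbol. This gave 53 genes (25 integrins and 28 tetraspanins, on 127 probe sets) of 19775 genes with such a probe set. The lines were U87 and U251 (glioblastoma), HT1080 (fibrosarcoma), DU145 (prostate carcinoma), MDA231 (breast carcinoma) and MDA435, given as breast cancer in the labels and argued elsewhere to be of melanocytic origin. Each line was plated on porous filters for 24 hours, and the material below the filter (pseudopods, the protrusions pushed through the pores) and above it (cell bodies) was scraped off and its total RNA purified, with 3 arrays per line and fraction, 36 in all. No other agent, transfection or allele is named in the labels for any of the 12 groups. Both fractions of a line shared a medium, which was DMEM for the glioblastoma and fibrosarcoma lines and RPMI-1640 for the other lines.

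Integrins are receptors made of an alpha and a beta subunit, each crossing the membrane a single time. Outside the cell they bind matrix proteins or counter-receptors, and inside they are linked by talin, kindlin and other adaptors to actin filaments, so that migrating tumour cells use them to hold the substrate at the leading edge. Tetraspanins cross the membrane repeatedly and gather integrins, proteases and other partners into membrane domains; they are also abundant in endosomes and exosomes. RNAs of both families are translated at the endoplasmic reticulum, where the chains are inserted into the membrane.

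The deposited intensities are linear, and array medians ran from 18.2 to 30.6, averaging 23.0 in pseudopods and 25.8 in cell bodies (n = 18 each). The labels number the replicates without saying whether they came from separate cultures, so p-values measure only the spread between these arrays. Some arrays stood apart from their group. CDH1, which encodes the epithelial cadherin, stood at 4.5, 13.7 and 1299 in pseudopods and 8.2, 1778 and 2.2 in cell bodies in MDA231 replicates 1, 2 and 3, and at 2073, 922 and 33.2 in pseudopods and 32.8, 1044 and 2463 in cell bodies in those of MDA435. In U87, pseudopod replicate 3 had the highest of the 3 pseudopod values for 22 of the 24 members that were lower there, as had HT1080 pseudopod replicate 1 for 21 of 23, U251 pseudopod replicate 1 for 15 of 18 and MDA435 pseudopod replicate 3 for 12 of 16. The median SD of the members over the U87 pseudopod arrays was 0.47 on the log2 scale, against 0.19 in its cell bodies. SOX10, a neural crest gene, was at 884 or more on every MDA435 array and at 31.1 or less on those of the other lines. PTPRC, the leukocyte surface phosphatase gene, did not exceed 20.8 on any array. The summed level of 8 leukocyte markers lay between 156 and 889.7 in pseudopods and between 169.5 and 1509.8 in cell bodies. LAPTM5 alone reached 706.5 in pseudopods and 1190.7 in cell bodies. Of 7 tested markers 2 were lower in pseudopods, LAPTM5 (-0.35 ± 0.09 on the log2 scale) and CD14 (-0.18 ± 0.07). The part of these markers in the results was not tested. Of 5 mesenchymal markers 4 were lower and 0 higher, of 5 glial and neural markers 3 and 0, of 5 melanocytic markers 2 and 0, and of 7 epithelial markers 1 and 2, where 20.8% of all genes tested were lower and 29.5% higher. GFAP, the astrocyte filament gene, was at 13.2 or less on the U87 arrays and at 115 or more on those of U251. Of the melanocytic list, TYR, S100B and MITF were at 145, 1668 and 1392 or more on every MDA435 array and lower on all arrays of the other lines, while MLANA and PMEL were at 36.2 or less on every MDA435 array.

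Most integrin and tetraspanin RNAs were lower in pseudopods than in cell bodies, and 1 was higher. Of the 53 members, 48 reached the level filter (a highest group mean of at least 24.4 intensity units), and of these 34 fell and 1 rose when the 6 lines were averaged with equal weight (limma on log2(intensity + 16), adjusted p under 0.05 over 15399 genes). Among all genes tested 20.8% were lower and 29.5% higher, against 70.8% and 2.08% of the members. The median change of the tested members was -0.64 on the log2 scale, against 0.05 for all genes. The count was 17 of 21 for integrins (median -0.72) and 17 of 27 for tetraspanins (median -0.63). The pseudopod mean lay below the cell body mean in all 6 lines for 24 of the tested members and above it in all 6 for 1; among all genes these shares were 17.1% and 27.8%. Both fractions came from the cells of 1 line, and a level is relative to the other RNAs of its array. A fall is therefore a smaller share of the RNA of the pseudopod fraction. Amounts per cell, and which cells of a line contributed to each fraction, were not measured. Leaving out the 4 arrays of MDA231 and MDA435 whose CDH1 differed from the rest of their group (MDA231 pseudopod 3 and cell body 2, MDA435 pseudopod 3 and cell body 1) gave 36 falls and 1 rise, and leaving out both lines gave 35 and 1. With equal array medians, which moved the median change of all genes from 0.05 to 0.17, 32 fell and 2 rose, the added rise being TSPAN11 (0.29 ± 0.12, adjusted p = 0.0432). Of the 26 members with several tested probe sets, 24 had the same sign on all of them and 17 fell on all of them. Shares over all genes with several tested probe sets are not given here, so these counts have no background beside them. CD9 and TSPAN12 had tested probe sets of both signs.

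**Figure D1:**
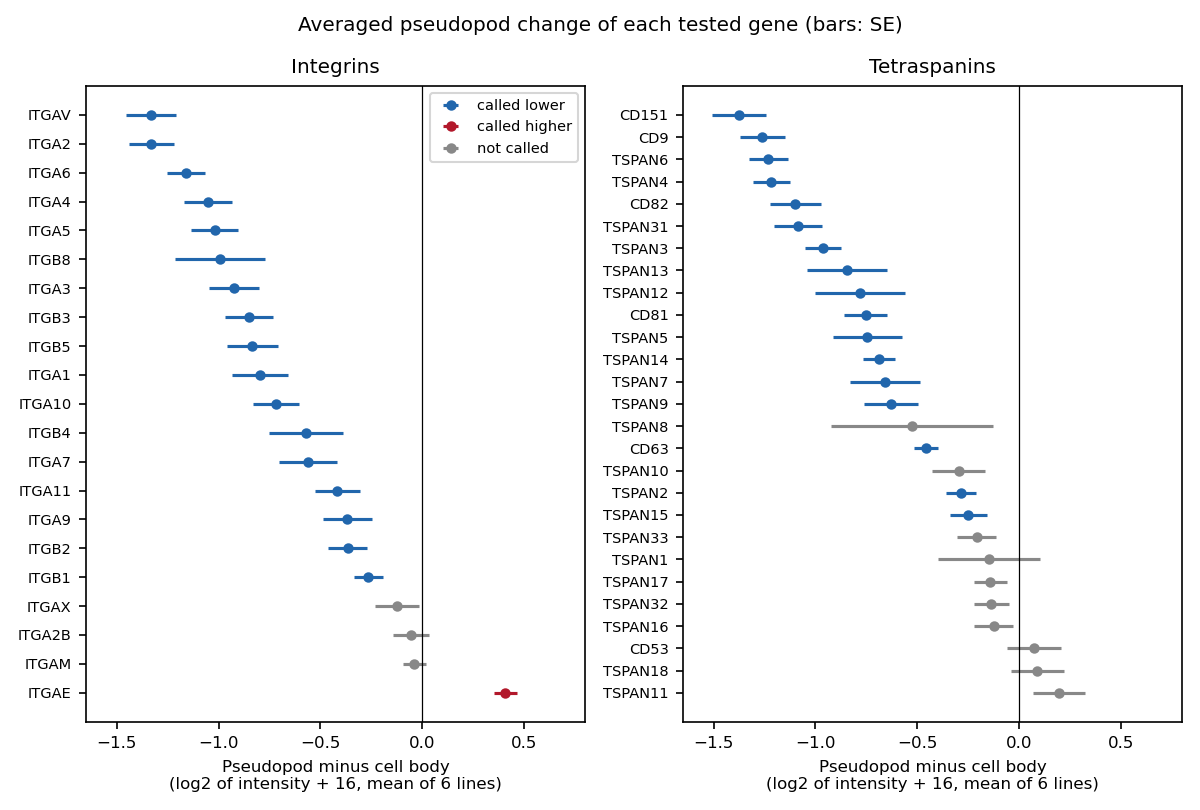
Averaged change of the 48 tested members, 1 point per gene with its SE, on the log2 scale of intensity + 16 (pseudopod minus cell body); integrins on the left, tetraspanins on the right. All points but 4 lie below 0, from CD151 at -1.38 to ITGAE at 0.41, the only red point.

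Among the alpha subunits that recognise the RGD sequence of fibronectin and vitronectin, ITGAV and ITGA5 fell and ITGA2B did not pass. ITGAV, the alpha subunit that pairs with several beta chains, had a lowest, median and highest intensity of 333, 698 and 2319 in pseudopods and 1154, 2135 and 3998 in cell bodies (18 arrays each). Its level fell by 1.33 ± 0.12 (SE) in log2 units (2.52-fold; limma, adjusted p = 3.69e-10), and in each of the 6 lines all 3 pseudopod arrays lay below all 3 cell body arrays. ITGA5, the alpha chain of the main fibronectin receptor, had, in the same order, 50.3, 89.6 and 447 in pseudopods and 86.2, 135 and 919 in cell bodies. It changed by -1.02 ± 0.12 (2.03-fold, adjusted p = 1.75e-08), and again no pseudopod array reached a cell body array of its own line. HT1080 gave 164, 119.5 and 88.6 in pseudopods and 517, 522 and 400.4 in cell bodies, and DU145 gave 112, 87.1 and 94.9 in pseudopods and 113, 122 and 177 in cell bodies; its change did not pass the test of a difference between lines (limma F test, adjusted p = 0.183). ITGA2B, the platelet alpha chain, was dim, at 1.9 to 44.8 on all arrays, and changed by -0.06 ± 0.09 (adjusted p = 0.633).

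All 3 laminin-binding alpha chains fell. ITGA6, a subunit of laminin receptors on epithelial and stem-like cells, had a lowest, median and highest intensity of 24.7, 732 and 1878 in pseudopods and 142, 1757 and 2841 in cell bodies. Its change was -1.16 ± 0.09 (2.23-fold, adjusted p = 3.00e-11), with overlapping arrays in MDA231 only. ITGA3, another laminin receptor chain that binds CD151 tightly, changed by -0.92 ± 0.12 (1.90-fold, adjusted p = 3.21e-07) and fell in U87 and HT1080. ITGA7, best known from muscle, was bright in the glioblastoma lines alone: U87 had 60.2, 12.8 and 198 in pseudopods and 327, 266 and 268 in cell bodies, and U251 had 319.5, 234 and 236 in pseudopods and 629, 497 and 545 in cell bodies. Its other 4 lines stayed at 18.2 or less on every array, near the low end of the scale. The averaged change of -0.56 ± 0.14 (adjusted p = 0.00144) therefore rested on 2 lines, and with the 6 lines as units adjusted p = 0.0848 (limma).

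The 4 collagen-binding alpha chains fell as well. ITGA2, a receptor for fibrillar collagen and laminin, had a lowest, median and highest intensity of 96.4, 589.9 and 1429 in pseudopods and 442, 1096 and 3612 in cell bodies, and no pseudopod array reached a cell body array of its own line. It changed by -1.33 ± 0.11 (2.51-fold, adjusted p = 5.24e-11; -1.40 on its other probe set). HT1080 had the highest ITGA2 values, 1429, 1012 and 1035 in pseudopods and 3361, 3428 and 3612 in cell bodies. ITGA10, first described in cartilage, changed by -0.72 ± 0.11 (adjusted p = 4.50e-06), ITGA1 by -0.80 ± 0.14 (adjusted p = 1.75e-05) and ITGA11 by -0.42 ± 0.11 (adjusted p = 0.00231). ITGA11 fell in HT1080 alone among the single lines, and in the fit over line differences it missed the threshold (adjusted p = 0.0741). The remaining non-leukocyte alpha chains, ITGA4 and ITGA9, bind fibronectin, VCAM1 or other ligands. ITGA4 changed by -1.05 ± 0.12 (adjusted p = 1.66e-08); MDA435 had 84.5, 130.3 and 256 in pseudopods and 905, 801 and 513 in cell bodies, and HT1080 had 46.6, 41 and 25.4 in pseudopods and 178, 234 and 185 in cell bodies. DU145 and MDA231 arrays held at most 16.4 units of ITGA4, so that a change there was not measurable. ITGA9 was above 11.9 units in MDA435 alone, with 20.3, 23.9 and 103 in pseudopods and 356, 128 and 122 in cell bodies; its averaged change of -0.37 ± 0.12 (adjusted p = 0.0113) did not pass without MDA231 and MDA435 (adjusted p = 0.0700) or with the lines as units (adjusted p = 0.206).

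**Figure D2:**
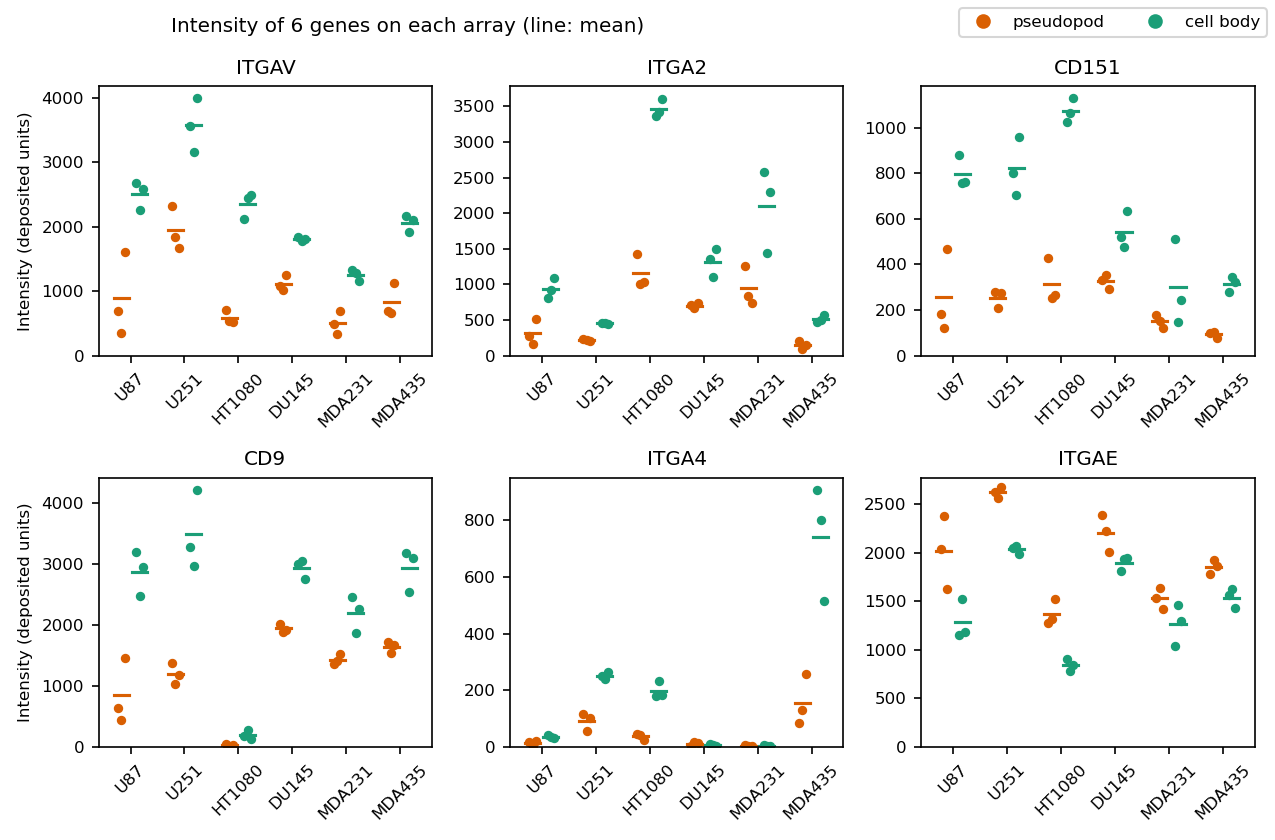
Intensity in deposited units of ITGAV, ITGA2, CD151, CD9, ITGA4 and ITGAE on each of the 36 arrays, by line, with pseudopods in orange, cell bodies in green and a bar at the mean of 3. ITGAV, ITGA2 and CD9 separate the fractions in each of the 6 lines, ITGA4 is near 0 in DU145 and MDA231, and ITGAE is higher in pseudopods, with overlapping arrays in MDA231.

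ITGB1, the beta subunit shared by most matrix-binding integrins, gave values that depended on the probe set. On the probe set with the highest mean, 211945_s_at, its lowest, median and highest intensity were 1959, 3133 and 5159 in pseudopods and 2693, 3645 and 6453 in cell bodies, and it fell by 0.26 ± 0.07 (1.20-fold, limma adjusted p = 0.00249; adjusted p = 0.0501 with the lines as units and 0.365 with equal array medians). On 1553678_a_at the change was -1.31 ± 0.12 (2.48-fold, adjusted p = 1.65e-10), and on 1553530_a_at it was -1.49 ± 0.12 (2.82-fold, adjusted p = 2.75e-11), in a fit of 28957 probe sets. HT1080 shows the gap. Its arrays were at 4839, 2991 and 3325 in pseudopods and 3593, 3698 and 4016 in cell bodies on 211945_s_at, which overlap, and at 1121, 764 and 841 in pseudopods and 3163, 3377 and 3336 in cell bodies on 1553530_a_at, which do not. In MDA231 the change was -0.0023 on 211945_s_at and -1.05 on 1553530_a_at. Another tested probe set, 216178_x_at, was dim, with a cell body mean of 34.9, and did not pass (-0.15, adjusted p = 0.248). Which part of the ITGB1 RNA each probe set reads was not analysed here.

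**Figure D3:**
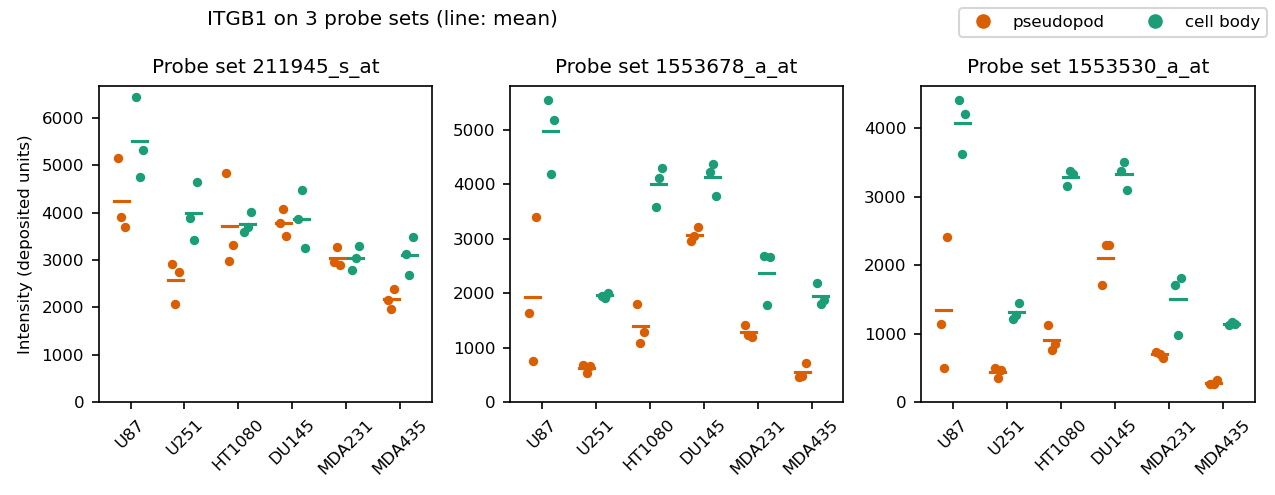
Intensity in deposited units of ITGB1 on 3 probe sets, 1 point per array, by line, with pseudopods in orange, cell bodies in green and a bar at the mean of 3. The fractions overlap in 4 of 6 lines on 211945_s_at and are apart in each of the 6 on the other probe sets, whose averaged changes are -1.31 and -1.49.

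The other 5 tested beta subunits fell too on the probe sets used. ITGB5 and ITGB3, both partners of ITGAV in vitronectin receptors, changed by -0.83 ± 0.13 (adjusted p = 2.03e-06) and -0.85 ± 0.12 (adjusted p = 6.60e-07). On its other tested probe sets ITGB3 fell by less, with changes between -0.50 and -0.19. ITGB3 in MDA435 had 50.2, 40.2 and 90.9 in pseudopods and 257, 120.0 and 203 in cell bodies, with no overlap, and it was at most 19 units on the arrays of U251 and MDA231. ITGB8, the ITGAV partner that activates latent TGF-beta, changed by -0.99 ± 0.22 (adjusted p = 0.000391), and its SE was the largest among the beta chains. ITGB8 changed by less on its other tested probe sets, which were dimmer, with values between -0.46 and -0.15. The smallest of these changes did not pass (limma adjusted p = 0.0933). U251 had 1659, 1229.8 and 1382 in pseudopods and 2969.8, 2511 and 1989.7 in cell bodies for ITGB8, whereas DU145 had 22, 12 and 25.3 in pseudopods and 33.2, 46.2 and 25.3 in cell bodies. Replicate arrays of MDA231 differed widely in ITGB8, with 110.8, 91.1 and 14.1 in pseudopods and 324.4, 26 and 230.6 in cell bodies. The lowest were pseudopod 3 and cell body 2, which also stood apart in CDH1. ITGB4, the ITGA6 partner of hemidesmosomes, changed by -0.57 ± 0.18 (adjusted p = 0.0103, and 0.0726 with a pseudocount of 4), and U251 separated its fractions most clearly, with 193, 145 and 139 in pseudopods and 438, 440.4 and 418 in cell bodies. Its other tested probe sets were dim, with means of 25.7 and 16.2 over all arrays. There ITGB4 changed by -0.15 and -0.07 and did not pass (limma adjusted p = 0.277 and 0.359). The ITGB4 fall therefore rested on the probe set used. ITGB2, the leukocyte beta chain, changed by -0.37 ± 0.09 (adjusted p = 0.00184; 0.0851 with the lines as units), with values above 100 units in DU145 and MDA231 only: DU145 had 111, 87.1 and 99 in pseudopods and 173, 135 and 212 in cell bodies.

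ITGAE, which encodes the alpha chain of an E-cadherin receptor of intraepithelial lymphocytes, was the sole member that rose. Its lowest, median and highest intensity were 1277, 1894 and 2677 in pseudopods and 780.1, 1490.2 and 2069 in cell bodies, and it rose by 0.41 ± 0.05 (1.33-fold, limma adjusted p = 3.16e-07). The pseudopod mean was above the cell body mean in 6 of 6 lines, and the arrays overlapped in MDA231 only, where they were at 1535, 1632 and 1422 in pseudopods and 1039, 1458 and 1300.3 in cell bodies. In HT1080 they were at 1277, 1319 and 1519 in pseudopods and 903, 780.1 and 844 in cell bodies (0.69 ± 0.13, adjusted p = 0.000250). ITGB7, the known beta partner of ITGAE, did not reach the level filter and was at 24.1 or less on every array. The other leukocyte alpha chains were dim. ITGAD and ITGAL did not reach the filter (highest group means 12.3 and 14.8), ITGAM stayed between 16.1 and 32.2 with a change of -0.04 ± 0.06, and ITGAX passed the filter through U87 cell bodies, where its arrays read 43.3, 4.2 and 52.6. ITGA8, an RGD-binding chain, was also below the filter (highest group mean 21).

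Of the 6 tested tetraspanins named by a CD number, 5 fell. CD151, which binds laminin-receptor integrins, had the largest change of all members on the probe sets used, 1 per gene; single other probe sets of ITGB1, TSPAN3 and ITGA2 changed by more. Its lowest, median and highest intensity were 79.2, 230.1 and 469.9 in pseudopods and 147, 671 and 1131 in cell bodies, and it changed by -1.38 ± 0.13 (2.59-fold, limma adjusted p = 6.68e-10). The fractions were apart in 5 lines, for example in MDA435 with 98, 105 and 79.2 in pseudopods and 280.5, 345 and 323 in cell bodies; in MDA231 they overlapped, with 179.7, 151 and 120.2 in pseudopods and 511, 147 and 244 in cell bodies. CD9, a tetraspanin of migrating and fusing cells, had a lowest, median and highest intensity of 21.1, 1397 and 2022 in pseudopods and 127, 2844 and 4202 in cell bodies, and its fractions were apart in each of the 6 lines (-1.26 ± 0.11, 2.40-fold, adjusted p = 1.65e-10). HT1080 had little CD9, 49.6, 21.1 and 26.4 in pseudopods and 176, 280.1 and 127 in cell bodies. CD82, known as a suppressor of metastasis, had, in the same order, 48.8, 235 and 1174 in pseudopods and 138, 524 and 1669 in cell bodies and changed by -1.10 ± 0.13 (adjusted p = 1.94e-08), with fractions apart in each of the 6 lines.

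CD81 and CD63 fell by less than CD151, CD9 and CD82. CD81 had a lowest, median and highest intensity of 642, 1513 and 2230.0 in pseudopods and 2043, 2556 and 3682 in cell bodies and changed by -0.75 ± 0.11 (1.68-fold, adjusted p = 7.50e-07). CD63, an abundant protein of late endosomes and lysosomes, had, in the same order, 1864, 3383 and 5217 in pseudopods and 2771, 4055 and 6844 in cell bodies and changed by -0.46 ± 0.06 (1.37-fold, adjusted p = 3.36e-07). The fractions of CD63 overlapped in U87, U251 and DU145 and were apart in MDA435, with 1967, 1864 and 2008 in pseudopods and 3594, 3062 and 3557 in cell bodies. CD53 and CD37 are tetraspanins of leukocytes. CD53 did not pass (0.07 ± 0.13, adjusted p = 0.687), and CD37 did not exceed 22.2 on any array and was not tested.

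Among the other tetraspanins, TSPAN6, TSPAN4 and TSPAN31 fell most on the probe sets used. TSPAN6 had a lowest, median and highest intensity of 182, 384 and 596 in pseudopods and 592, 879.5 and 1216 in cell bodies, so that 596, the highest of 18 pseudopod values, was just above 592, the lowest of 18 cell body values. It changed by -1.23 ± 0.10 (2.35-fold, adjusted p = 2.38e-11; -1.23 on its other probe set). TSPAN4, described in the migrasomes that form on retraction fibres of migrating cells, had, in the same order, 111, 272 and 671 in pseudopods and 226, 745 and 1694 in cell bodies and changed by -1.22 ± 0.09 (2.33-fold, adjusted p = 9.66e-12), with fractions apart in each of the 6 lines. TSPAN31 changed by -1.09 ± 0.12 (adjusted p = 8.73e-09), with overlapping arrays in DU145, where they read 94.4, 70.5 and 79 in pseudopods and 108, 87 and 165 in cell bodies. Below these 12 largest falls of both families, the members named here were chosen after their values were seen. TSPAN3 fell by 0.96 ± 0.09 and changed by -1.43 and -0.32 on its other tested probe sets. TSPAN13, TSPAN12, TSPAN7, TSPAN9 and TSPAN2 fell as well, with changes between -0.85 and -0.29. TSPAN2 was bright in U251, with 189, 174 and 158 in pseudopods and 313, 246 and 285 in cell bodies, and missed the threshold in the fit over line differences (adjusted p = 0.0643).

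The TspanC8 tetraspanins, named for the cysteines of their large extracellular loop, carry the protease ADAM10 out of the endoplasmic reticulum. Of these 6 genes, 3 fell and 3 did not pass. TSPAN5 changed by -0.75 ± 0.17 (adjusted p = 0.000521), TSPAN14 by -0.69 ± 0.08 (adjusted p = 1.47e-08) and TSPAN15 by -0.25 ± 0.09 (adjusted p = 0.0243; 0.0812 with the lines as units). TSPAN14 fractions were apart in 5 lines and overlapped in DU145. TSPAN17 stood at 202, 425 and 1011 in pseudopods and 244, 510.0 and 687 in cell bodies in its lowest, median and highest arrays, bright throughout, and its change of -0.14 ± 0.08 did not pass (adjusted p = 0.159). TSPAN33 (-0.21 ± 0.10, adjusted p = 0.0753) and TSPAN10 (-0.30 ± 0.13, adjusted p = 0.0606) did not pass either; TSPAN33 was above 100 units on all DU145 arrays, at 149, 135 and 134 in pseudopods and 126, 118 and 121 in cell bodies. Outside this subfamily TSPAN11, TSPAN16, TSPAN18 and TSPAN32, which had no group mean of 100 units, changed by between -0.14 and 0.19. Restricted to genes whose highest group mean reached 100 units, 34 of 40 members were lower, where 22.7% of 11160 such genes were, and 1 was higher, where 38% were.

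TSPAN8 and TSPAN1, tetraspanins of epithelial and carcinoma cells, varied more between replicate arrays than between fractions in MDA231 and MDA435. In MDA231 TSPAN8 was at 394, 138 and 1881 in pseudopods and 976, 2215 and 353 in cell bodies, and in MDA435 at 1438, 777 and 33.8 in pseudopods and 36, 1071 and 1699 in cell bodies. TSPAN1 read 129.9, 72.9 and 309 in pseudopods and 149, 548 and 88.5 in cell bodies in MDA231, and 237, 146 and 16.4 in pseudopods and 16, 185 and 224 in cell bodies in MDA435. Pseudopod replicate 3 and cell body replicate 2 were the highest MDA231 arrays of both genes, and pseudopod replicate 3 and cell body replicate 1 the lowest MDA435 arrays, the same arrays in which CDH1 differed from its group. TSPAN13 in MDA231 had 380.3, 243 and 1633 in pseudopods and 752, 2155 and 454 in cell bodies, with the same 2 arrays highest. The averaged changes were -0.53 ± 0.40 for TSPAN8 (adjusted p = 0.290; 0.0115 with the lines as units), -0.15 ± 0.25 for TSPAN1 (adjusted p = 0.655) and -0.85 ± 0.20 for TSPAN13 (adjusted p = 0.000637). CDH1 varied with these genes, and its part in their values was not tested. In MDA435 pseudopod 3 and cell body 1 were also the lowest arrays of TSPAN12 and TSPAN5. TSPAN12 had 160.5, 54.1 and 2.8 in pseudopods and 1.9, 68.3 and 165 in cell bodies. TSPAN5 had 89.7, 16.7 and 3.8 in pseudopods and 10.8, 40.4 and 97.6 in cell bodies. The part of CDH1 in these values was not tested either. The tetraspanins of this paragraph were chosen after their values were seen.

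**Figure D4:**
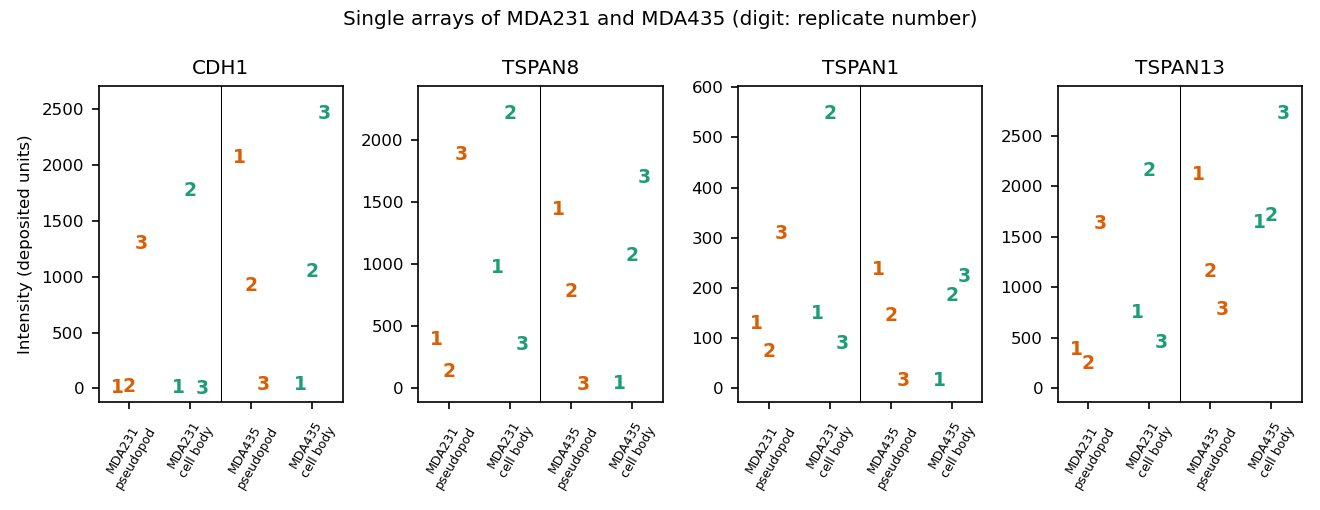
Intensity in deposited units of CDH1, TSPAN8, TSPAN1 and TSPAN13 on the 12 arrays of MDA231 and MDA435; each digit is an array, drawn as its replicate number (orange: pseudopod, green: cell body). In MDA231 pseudopod 3 and cell body 2 are highest in every panel, and in MDA435 pseudopod 3 and cell body 1 are lowest for CDH1, TSPAN8 and TSPAN1.

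Within single lines the number of members that fell differed widely, as did the number of all genes called. In U87 24 of 48 members were lower (11.8% of all genes), and 1 was higher (11.7% of all genes). The 24 include ITGAX (-0.81 ± 0.27, limma adjusted p = 0.0260), whose arrays overlapped. It passed the level filter only through the U87 cell bodies, so its U87 call is not independent of the filter. The largest U87 falls with arrays apart were ITGA7 (-1.96 ± 0.35, 3.88-fold, limma adjusted p = 0.000123), CD9 (-1.92 ± 0.27, 3.78-fold), CD151 (-1.78 ± 0.32) and ITGAV (-1.74 ± 0.30), and ITGAE rose by 0.64 ± 0.13 (adjusted p = 0.000728). CD9 in U87 stood at 638, 437 and 1458 in pseudopods and 3192, 2469 and 2942 in cell bodies, so pseudopod replicate 3 was the highest of its group and still below every cell body array. Without pseudopod replicate 2 the U87 count was 15, and without replicate 3 it was 25.

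In U251 18 of 48 members were lower (9.33% of all genes) and 0 were higher (limma; 5.36% of all genes). CD151 (-1.63 ± 0.32, 3.11-fold, adjusted p = 0.000719), CD9 (-1.52 ± 0.27), TSPAN6 (-1.44 ± 0.24) and ITGB4 (-1.37 ± 0.45, adjusted p = 0.0365) fell most. The U251 arrays of CD151 were at 281, 208 and 273 in pseudopods and 803, 705 and 959 in cell bodies. The count was 10 to 15 when 1 U251 array was left out. In HT1080 23 of 48 members were lower (12% of all genes) and 1 was higher (12.8% of all genes). CD9 (-2.10 ± 0.27, 4.29-fold, adjusted p = 1.95e-06), ITGA4 (-2.02 ± 0.29), ITGAV (-1.99 ± 0.30, adjusted p = 1.16e-05) and ITGA5 (-1.85 ± 0.28) fell most. ITGAV in HT1080 was at 701, 532 and 516 in pseudopods and 2112, 2439.7 and 2484 in cell bodies, with no overlap.

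In DU145 2 of 48 members were lower (2.16% of all genes) and 0 were higher (0.825% of all genes). The 2 were TSPAN6 (-0.89 ± 0.24, 1.85-fold, limma adjusted p = 0.0390) and ITGA6 (-0.85 ± 0.23, adjusted p = 0.0396), and the count was 1 or 0 when 1 DU145 array was left out. TSPAN6 stood at 366, 539.8 and 556 in pseudopods and 951, 897 and 855 in cell bodies. The median change of the 48 in DU145 was -0.38. In MDA231 8 of 48 members were lower (4.9% of all genes) and 0 were higher (1.18% of all genes), and the largest falls with arrays apart were ITGAV (-1.34 ± 0.30, 2.54-fold, adjusted p = 0.00879), ITGA2 (-1.13 ± 0.27), TSPAN4 (-1.11 ± 0.22) and ITGB2 (-0.96 ± 0.23, adjusted p = 0.0135). ITGAV in MDA231 read 492, 333 and 684 in pseudopods and 1324, 1275 and 1154 in cell bodies. The MDA231 count was 2 without cell body replicate 1, 13 without cell body replicate 2, and 11 without the 4 arrays named above. In MDA435 16 of 48 members were lower (8.81% of all genes) and 0 were higher (2.96% of all genes), with ITGA4 (-2.21 ± 0.29, 4.63-fold, adjusted p = 1.43e-05), ITGA9 (-1.81 ± 0.29), ITGA2 (-1.70 ± 0.27) and TSPAN4 (-1.60 ± 0.22) falling most; without the 4 arrays the count was 14. TSPAN4 in MDA435 stood at 239, 227 and 262 in pseudopods and 929.5, 717 and 671 in cell bodies. No member was called lower in all 6 lines taken singly (0 of 48), 31 were called lower in at least 1 line, and 16 were called in none. Of the 31, ITGAX was called in U87 alone. The same counts were not made for all genes, so no background share stands beside them. A member without a call may still have changed. TSPAN13 in U87 changed by -0.98 ± 0.48 with its arrays apart and was not called (limma adjusted p = 0.152). Within-line SE and p-values use the spread of a gene pooled over all 12 groups. The SE of TSPAN13 was therefore 0.48 in each of the 6 lines and is not the spread of U87 alone.

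All 3 pseudopod arrays lay below all 3 cell body arrays for 24 members in U87 (14.3% of all genes), 32 in U251 (16.9%), 28 in HT1080 (18.4%), 22 in DU145 (14.9%), 17 in MDA231 (11.9%) and 21 in MDA435 (12.3%). They lay above all 3 for 2 members in U87 (17%), 1 in U251 (22%), 1 in HT1080 (29.5%), 2 in DU145 (16.7%), 2 in MDA231 (9.11%) and 2 in MDA435 (12.3%). In every line the share of members with pseudopods below was larger than that of all genes, and the share above was smaller.

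**Figure D5:**
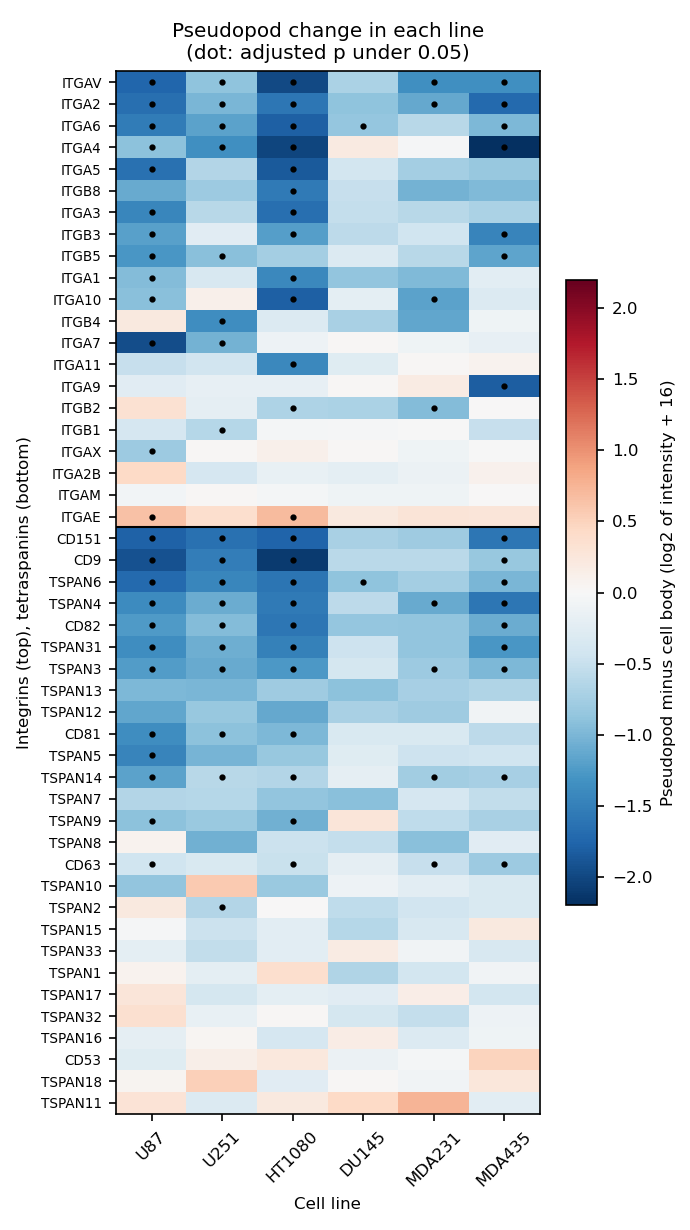
Change of each tested member (rows) in each line (columns) on the log2 scale of intensity + 16, blue for lower and red for higher in pseudopods; a dot marks adjusted p under 0.05, and genes are ordered by their averaged change within integrins (above the black line) and tetraspanins (below it). U87, U251 and HT1080 carry 24, 18 and 23 dots for falls and DU145 carries 2, while blue runs through the upper rows of both families except for ITGA4 in DU145 (0.21).

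The size of the change was tested for a difference between the 6 lines with a moderated F test, which 3 of the 48 members passed (against 1.18% of all genes). ITGA4 had the largest F (11.84, limma adjusted p = 0.00123), with -2.21 ± 0.29 in MDA435 and 0.21 ± 0.29 in DU145. Its DU145 arrays held at most 16.4 units, so a change there was not measurable. ITGA10 (adjusted p = 0.0356) changed by -1.80 ± 0.28 in HT1080, where its arrays were at 179.9, 177 and 113 in pseudopods and 425, 734 and 606 in cell bodies. U251 gave 36.7, 42.7 and 52.9 in pseudopods and 37.2, 45.5 and 36.1 in cell bodies for ITGA10, without a clear difference (0.11 ± 0.28). CD9 (adjusted p = 0.0482) ran from -2.10 ± 0.27 in HT1080 to -0.59 ± 0.27 in DU145, at high cell body levels in DU145. Leaving out 1 array, ITGA4 passed in 36 of 36 fits, ITGA10 in 18 and CD9 in 4. Without U87 pseudopod replicate 3 the number of members that passed rose to 14, ITGA7 and CD9 first among them, and in other fits, such as that without U87 pseudopod replicate 1, it was as low as 1. The share of all genes that passed in those fits is not given here.

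With the 6 lines rather than the arrays as units, 28 members fell and 1 rose (limma on 6 line differences; 19.3% and 29% of all genes). CD151 (adjusted p = 0.000258), ITGAV (adjusted p = 0.000278), ITGA2 (adjusted p = 0.000130), CD9 (adjusted p = 0.00132), CD81 (adjusted p = 0.00184), CD63 (adjusted p = 0.00171) and ITGAE (adjusted p = 0.00291) were among them.

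The genes around these receptors did not all go the same way. Of 24 tested integrin ligands, secreted matrix proteins and a pair of cell surface counter-receptors, 22 fell and 0 rose (median -1.11), led by THBS1, a thrombospondin (-1.51 ± 0.14), TNC, tenascin C (-1.36 ± 0.14), and LAMA4, a laminin chain (-1.33 ± 0.18). Of 12 membrane partners of integrins and tetraspanins, 11 fell and 0 rose (median -1.21): PTGFRN, an immunoglobulin superfamily partner of CD9 and CD81, changed by -1.40 ± 0.25, BSG, which binds laminin-receptor integrins, by -1.36 ± 0.13, and CD47, an ITGAV partner, by -1.27 ± 0.09. ADAM10, the cargo of the TspanC8 group, changed by -1.26 ± 0.11 and was named after its value was seen. EPCAM did not pass (-0.15 ± 0.38, adjusted p = 0.765). Among 26 tested cytoplasmic partners, whose proteins are made on free ribosomes, 3 fell and 11 rose (median 0.18), which is 11.5% and 42.3%, against 20.8% and 29.5% of all genes. PARVA, a parvin that links ILK to actin (0.83 ± 0.17), SHARPIN, which binds alpha tails (0.60 ± 0.07), and TGFB1I1, a paxillin relative (0.53 ± 0.13), rose most. VCL, vinculin (-0.81 ± 0.07), ACTN4 (-0.54 ± 0.11) and ACTN1 (-0.17 ± 0.07), actin-binding alpha-actinins, fell; ACTN1 did not pass with equal array medians (adjusted p = 0.910), and its call ended in 7 of 36 fits without 1 array. ITGB1BP1, a cytoplasmic protein that binds the ITGB1 tail and is outside the rule for members, rose by 0.50 ± 0.06 (adjusted p = 5.19e-08), from 976 ± 314 to 1430.2 ± 585 units (SD, n = 18 each); it was named after its values were seen.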

How the data were processed

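RNA of pseudopods and cell bodies of 6 lines was measured on 36 HG-U133 Plus 2.0 arrays. Amplification started from 100 ng of total RNA and ran over 2 cycles, per the labels. The intensity values were deposited by the authors on a linear scale from 0 to 9883.2; RMA and Partek appear in the submitters' processing notes, while the origin of the linear scale was not given in the sources used here. The members and gene lists were chosen with earlier results of these data known.

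Of the probe sets, 41074 carried 1 symbol in the platform annotation, 1798 several and 11721 none; 41020 of the first were matched by Entrez number to the RefSeq gene table of GRCh38.p14. Among protein-coding genes of the rule, ITGB6 and TSPAN19 had no probe set of 1 symbol and were not analysed here. Each gene was read from its probe set with the highest mean. Values were taken as log2(intensity + 16), which understates changes of dim genes, so a fold is not the ratio of printed intensities. The 15399 genes with a highest group mean of at least 24.4 (the median of all values) were tested in Python 3.11.15 and R 4.3.3 with limma 3.58.1: 12 group means, 24 residual degrees of freedom, contrasts averaged over lines, within lines, between lines (F test) and over lines as units. A call is a Benjamini-Hochberg adjusted p under 0.05; errors after ± are SE unless stated. The fit was tested on simulated data. No count depth exists for arrays; their number, 3 per group, limits the precision.

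Named were the 12 largest called falls and up to 8 rises of the averaged contrast, up to 4 falls and rises per line without overlapping arrays, up to 6 members with the largest F, 11 members chosen by symbol (ITGB1, ITGB3, ITGB4, ITGAV, ITGA5, ITGA6, CD9, CD63, CD81, CD82, CD151), and up to 3 falls and 3 rises per gene list. Other members are named for their role or after their values were seen. Alternatives were pseudocounts of 4 and 64, equal array medians, quantile normalization, the mean of all probe sets, only probe sets without an _x_at or _s_at suffix, no filter, array weights, a replicate block, each array left out, both MDA lines left out and, added after seeing the data, the 4 arrays of MDA231 and MDA435 named in the text left out.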

Additional observations from a re-analysis of the deposited data

Results flagged for a closer look

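In 3 members the pseudopod change differed between the 6 lines by limma's moderated F test. ITGA4, an alpha chain that binds VCAM1 and fibronectin, had an adjusted p = 0.00123 in this test. It changed by -2.21 on the log2 scale in MDA435, -2.02 in HT1080 and 0.21 in DU145. In DU145 it was at 16.4 units or less on every array, so a change there was not measurable. The difference stayed below the threshold in 9 of 11 alternatives (highest adjusted p 0.0809, with a pseudocount of 4). ITGA10, a collagen-binding alpha chain, had an adjusted p = 0.0356, with changes of -1.80 in HT1080 and 0.11 in U251, and passed under 8 of 11 alternatives (highest adjusted p 0.175). It was dimmer in U251, at 36.1 to 52.9 units, than in HT1080 cell bodies, at 425 to 734. The part of a gene's level in each line in these F tests was not tested. CD9 had an adjusted p = 0.0482, with changes of -2.10 in HT1080 and -0.59 in DU145, and passed under 3 of 11 alternatives (highest adjusted p 0.345, when probe sets were averaged). Groups of 3 arrays were not tested for single outlying arrays.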

How the results depend on the processing

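The averaged counts of 34 falls and 1 rise changed little: over the 36 fits without 1 array there were 34 to 36 falls and 1 rise, over lines as units 26 to 30 falls, and the median change of the members stayed between -0.70 and -0.61. With equal array medians 2 members rose (ITGAE and TSPAN11), and falls numbered 11 in U251, 0 in DU145 and 2 in MDA231. The counts within DU145, MDA231 and between lines depended most on the setting. A pseudocount of 4 left 0 falls in DU145 and 0 members that differed between lines; a pseudocount of 64 gave 6 and 7, and 1 rise in U251. The mean of all probe sets gave 4 falls in DU145, 13 in MDA231 and 1 rise in U251, and leaving out _x_at and _s_at probe sets 1 fall in DU145. No filter gave 2 rises in U87 (ITGB7 added) and 1 in MDA435 (CD37), in genes below the filter. Array weights gave 15 falls in DU145, 21 in MDA231 and 26 in MDA435, 1 rise each in U251 and MDA231, and 24 members that differed between lines. The shares of all genes called under the alternatives and without 1 array are not given here. Whether all genes moved alike cannot be read from these counts. Without the 4 arrays of MDA231 and MDA435 named above, DU145 had 5 falls. Those arrays were high in CDH1 in MDA231 and low in CDH1 in MDA435, and which arrays better represent either line was not tested. Leaving out 1 array gave 15 to 25 falls in U87, 10 to 15 in U251, 20 to 23 in HT1080, 0 to 1 in DU145, 2 to 13 in MDA231 and 12 to 15 in MDA435, and 1 to 14 members that differed between lines. The labels do not say whether replicate numbers pair the fractions. Correlations of same-numbered arrays' deviations ran from -0.78 to 0.69, and 3 of 18 pseudopod arrays correlated best with their own number. With 3 arrays per group, these values cannot show whether the fractions were paired. With the replicate block there were 33 averaged falls and 1 rise, 0 falls in DU145, 4 in MDA231 and 0 members that differed between lines. Of 367 averaged changes of named genes under the settings that keep all arrays or leave out several, 363 kept direction and side of the threshold, 4 no longer passed (ITGB4, ITGB1, ACTN1 and ITGA9, given above) and 0 reversed; calls within single lines and between lines are not in this tally. Leaving out 1 array ended the call of ACTN1 in 7 of 36 fits and of no other named averaged change. Signal over background limits dim members: 5 were not tested.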
